A study of Mus musculus with 18 samples.

Results

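The 9 genes described here act in the fusion of osteoclast precursors, and they were picked by gene symbol from a table of 34745 genes: Dcstamp, Ocstamp, Cd9, Cd81, Cd44, Cd47, Sirpa, Cd200 and Adam8. All 9 were found, each on 1 line. All 9 were among the 14241 genes with enough reads to be tested.

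Osteoclasts are the multinucleated cells that resorb bone, and they arise when mononuclear cells of the macrophage lineage fuse under M-CSF and RANKL. DC-STAMP and OC-STAMP are multipass membrane proteins without which precursors stay mononuclear. The other 7 proteins are cell surface molecules: the tetraspanins CD9 and CD81, the hyaluronan receptor CD44, CD47 with its receptor SIRPα, the immunoglobulin family ligand CD200 and the metalloprotease ADAM8.

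Bone marrow-derived macrophages came from Zmat1 knockout mice, labelled KO, or from wild-type littermates, labelled WT. The knockout was global and on the C57BL/6 background, so it was not limited to osteoclast precursors, and the mice were 4 to 8 weeks old. All cells grew in M-CSF, for 3 days by the series design and 4 days by the methods. RANKL was then given for 0, 1 or 3 days, and per the study M-CSF was given together with it. Each of the 6 groups of label and day had 3 libraries, 18 in all, and every mean ± SD below has n = 3. Values of 3 libraries are listed in the order of their numbers, and for WT day 1, which has 2 libraries numbered 1 and no number 3, as the single-hyphen number 1, the double-hyphen number 1 and number 2. No label says that the libraries of a group came from separate mice, so p-values measure the spread between these libraries, which may be technical. Levels are given as CPM, read counts set relative to library size after TMM scaling. Differences are log2 fold changes with their standard error (SE) from edgeR, and a gene is said to have risen or fallen only where its adjusted p was under 0.05.

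The libraries held 13789775 to 17559958 reads assigned to genes. Of the titles, 5 carried a double hyphen: WT day 0 number 1, KO day 0 number 2, 1 of the 2 WT day 1 libraries numbered 1, and KO day 1 numbers 1 and 2. No day 3 title did, and what the hyphen stands for is not stated. These 5 libraries stood apart: with title style as a term in the fit, 3310 genes were called between the styles. Among the members, Ocstamp was lower in them (log2 difference -3.21, SE 0.43, adjusted p = 0.000377), Dcstamp was lower (-1.84, SE 0.57, adjusted p = 0.0327) and Sirpa was higher (0.90, SE 0.23, adjusted p = 0.014). The other 6 members were not called between the styles. Erythroid markers, 5 in all, summed to 0 to 0.33 CPM in the double-hyphen libraries and to 15.6 to 23.8 CPM in all others. The cause was not tested. Zmat1 itself was not lower in the libraries labelled KO (mean 5.13, 5.27 and 5.04 CPM at days 0, 1 and 3) than in those labelled WT (4.35, 3.99 and 3.26 CPM), and it was not called at any day. The study reports PCR genotyping of the mice and a qPCR check of Zmat1 in their macrophages. Why the Zmat1 counts here were not lower was not tested. Directions below are therefore directions between libraries by label.

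The cells carried markers of their lineage and of other cell types. All 8 macrophage markers were above 3 counts in every group, with a summed level of 30268 to 60485 CPM at day 0 and 6421 to 17536 CPM at day 3. The 8 osteoclast markers summed to 114 to 887 CPM at day 0 and 7888 to 22359 CPM at day 3, and Calcr and Oscar were at 3 counts or fewer on days 0 and 1. The 10 stromal or osteoblast markers also went up with time, from 93.9 to 4789 CPM at day 0 to 11106 to 29891 CPM at day 3. In KO at day 3 they summed to 20691 to 29891 CPM, above the macrophage (8772 to 17536) and osteoclast (7888 to 17024) sums. In WT at day 3 they summed to 11106 to 14301 CPM, below the osteoclast sum (15177 to 22359) and overlapping the macrophage sum (6421 to 13288). The lists hold different genes, so their sums do not give shares of cells. All 8 neutrophil markers fell from day 0 to day 3 in both labels (median log2 difference -5.03 in WT and -3.82 in KO), and of 6 B cell markers 5 fell in WT and 3 in KO. Of 5 megakaryocyte or platelet markers 4 fell in each label. The part of these cell types in the members' changes was not tested. In such bulk samples, a change in the share of a cell type and a change in RNA per cell cannot be told apart.

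Dcstamp (chr15:39745932-39760934, plus strand, in the files' build GRCm38, as are all positions) was all but silent before RANKL and abundant by day 3. At day 0 the WT libraries held 1, 0 and 4 reads of it and the KO libraries 3, 0 and 11 reads. At day 1 the WT libraries were at 1.68, 1.42 and 3.72 CPM and the KO libraries at 0.128, 0.358 and 1.88 CPM. By day 3 the WT libraries reached 93.7, 99.4 and 132 CPM and the KO libraries 73.0, 91.8 and 42.7 CPM. Every day 3 library of either label was far above every earlier library. Over all genes tested, day 0 and day 3 groups did not overlap for 62.5% in WT and 58.8% in KO.

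Ocstamp (chr2:165393760-165400405, minus strand), which encodes the companion of DC-STAMP, followed the same course. Its day 0 libraries held 1, 1 and 9 reads with the WT label and 13, 0 and 22 reads with the KO label. At day 1 the WT libraries were at 5.95, 0.583 and 7.58 CPM, where the low value is the double-hyphen library, and the KO libraries were at 0.449, 0.358 and 2.71 CPM, where both low values are double-hyphen libraries. By day 3 it stood at 180.4, 165 and 214 CPM in WT and at 140.2, 158 and 82.0 CPM in KO. The 3 WT values at day 3 all lay above the 3 KO values, as they did for Dcstamp. Over all genes tested, the labels did not overlap for 29.2% at day 3.

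**Figure D1:**
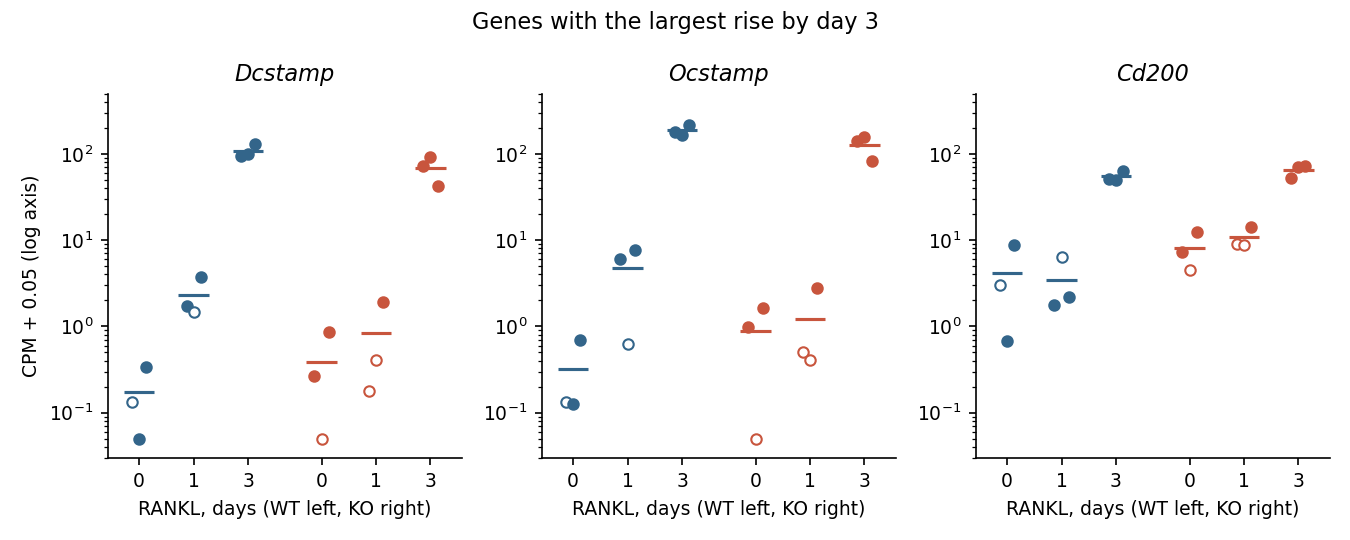
CPM plus 0.05 on a log axis for Dcstamp, Ocstamp and Cd200 in each of the 18 libraries, by days of RANKL, with WT in blue on the left and KO in red on the right. Points are libraries, open points are the 5 double-hyphen libraries and bars are group means. The day 3 libraries sit above all earlier ones for each gene.

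From day 0 to day 3, Dcstamp rose by 9.64 on the log2 scale in WT (SE 0.95, adjusted p = 7.54e-06) and by 7.62 in KO (SE 0.83, adjusted p = 2.94e-05). The ratio of its summed reads, scaled by library size, was 843 in WT, with an exact 95% interval of 361 to 2597, and 199 in KO, with an interval of 119 to 365. These intervals cover counting error only, and their width comes from 5 and 14 reads at day 0. Ocstamp rose by 9.34 in WT (SE 1.09, adjusted p = 2.15e-05) and by 7.20 in KO (SE 0.95, adjusted p = 9.01e-05). Single libraries with most of the day 0 reads set the size of these values. Without WT day 0 library 3 the rises in WT were 11.16 for Dcstamp and 11.07 for Ocstamp, and without KO day 0 library 3 those in KO were 9.22 and 8.06.

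From day 1 to day 3 Dcstamp rose by 5.56 in WT (SE 0.70, adjusted p = 0.000116) and by 6.45 in KO (SE 0.76, adjusted p = 9.39e-05), and Ocstamp by 5.29 (SE 0.82, adjusted p = 0.000453) and 6.75 (SE 0.92, adjusted p = 0.000267). Leaving out KO day 1 library 3 moved the KO values to 8.17 and 8.29. In the first day, the WT difference was 4.08 for Dcstamp (SE 1.03, adjusted p = 0.0525) and 4.06 for Ocstamp (SE 1.08, adjusted p = 0.0597), so neither passed. Without the double-hyphen libraries both passed, at 4.12 (adjusted p = 0.0329) and 4.17 (adjusted p = 0.0102). Both also passed with title style in the fit (4.15 and 4.03, adjusted p = 0.0192 and 0.00527), with DESeq2 (4.16 and 4.11, adjusted p = 0.00209 and 0.0121) and with the 2 WT day 1 libraries numbered 1 summed (4.24 and 4.27, adjusted p = 0.0453 and 0.0289). They passed too without WT day 0 library 3 (5.57 and 5.77, adjusted p = 0.041 and 0.0429) and with only the 2 single-hyphen WT day 1 libraries kept (4.32 and 4.56, adjusted p = 0.022 and 0.0099). Neither passed with total-count scaling, with either replicate block, with limma on FPKM, with no filter on low counts or with DESeq2 size factors in edgeR. Nor did they without WT day 0 library 1 or 2, the single-hyphen WT day 1 library numbered 1 or WT day 1 library 2 (adjusted p = 0.113 to 0.231). With a filter of 5 CPM in 3 libraries Dcstamp passed (adjusted p = 0.0475) and Ocstamp did not (0.0537). With only the 2 groups compared Dcstamp did not pass (adjusted p = 0.448). The KO differences over the first day were 1.17 (SE 0.96, adjusted p = 0.728) and 0.45 (SE 1.01, adjusted p = 0.921). Their direction rested on single libraries: leaving out KO day 1 library 3 turned them to -0.52 and -1.07, and Ocstamp was at -0.11 when the double-hyphen KO day 0 library was omitted. With KO day 0 library 3 omitted they were 2.74 and 1.29.

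The genes whose log2 CPM followed Dcstamp most closely over the 18 libraries were Ocstamp (Pearson r = 0.986), Abca2 (0.981), Mdh2 (0.978), Slc9b2 (0.974) and Scin (0.974). For Ocstamp they were Dcstamp (0.986), Jdp2 (0.981), Scin (0.980), Abca2 (0.978) and Slc9b2 (0.977). These values describe libraries that share days, labels and title styles, and the 6 day 3 libraries lie far from the other 12. They carry no p.

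Cd200 (chr16:45382135-45409053, minus strand) encodes a membrane ligand that signals through the CD200 receptor on myeloid cells. Its levels at day 0 were 2.97, 0.619 and 8.80 CPM in WT and 7.20, 4.46 and 12.2 CPM in KO. At day 1 they were 1.74, 6.25 and 2.14 CPM in WT and 8.98, 8.74 and 14.3 CPM in KO. By day 3 they were 51.1, 50.1 and 63.5 CPM in WT and 52.7, 69.9 and 71.7 CPM in KO. The 2 labels overlapped at days 0 and 3, and at day 1 all KO libraries were above all WT libraries. Over all genes tested, the labels did not overlap for 12.6% at day 1.

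Cd200 rose from day 0 to day 3 by 3.72 in WT (SE 0.67, adjusted p = 0.000475) and by 3.02 in KO (SE 0.64, adjusted p = 0.00215). Without WT day 0 library 3, the highest of its group, the WT value was 4.97. From day 1 to day 3 it rose by 4.04 in WT (SE 0.68, adjusted p = 0.000729), or 4.84 without the double-hyphen library, and by 2.60 in KO (SE 0.63, adjusted p = 0.00761). With the double-hyphen libraries left out, KO day 1 keeps 1 library, and the KO value of 2.21 then missed the threshold (adjusted p = 0.15). The first day showed no call in either label, at -0.32 in WT (SE 0.66, adjusted p = 0.832) and 0.42 in KO (SE 0.61, adjusted p = 0.858). Cd200r1, which encodes the receptor, went the other way: it fell from day 0 to day 3 by 1.68 in WT (SE 0.27, adjusted p = 0.000195) and by 1.51 in KO (SE 0.27, adjusted p = 0.000659).

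The tetraspanins CD9 and CD81 are small membrane organisers that associate with each other and with partners of the immunoglobulin family. Cd9 (chr6:125460266-125494791, minus strand) was at 127, 26.5 and 84.5 CPM in the WT day 0 libraries and at 227, 213 and 219 CPM in those of day 3. In KO it was at 108, 187 and 162 CPM at day 0 and at 256, 248 and 250.3 CPM at day 3. At day 1 its means were 197 ± 66.7 CPM in WT and 182 ± 17.3 CPM in KO. The day 3 libraries of each label lay above those of day 0, as they did for 31.5% of all genes tested in WT and 29.4% in KO. The spread within groups shrank from an SD of 50.6 CPM in WT and 40.4 CPM in KO at day 0 to 7.40 and 4.23 CPM at day 3.

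Cd9 rose from day 0 to day 3 in WT by 1.47 (SE 0.39, adjusted p = 0.0068), a call lost with only the 2 groups compared in the fit (1.49, adjusted p = 0.0557). The KO difference of 0.72 (SE 0.39, adjusted p = 0.143) did not pass, but it was 0.93 with title style in the fit (adjusted p = 0.0373) and 1.03 with total-count scaling (adjusted p = 0.0315). On day 1 the WT difference from day 0 was 1.31 (SE 0.39, adjusted p = 0.0817) and the KO difference 0.26 (SE 0.38, adjusted p = 0.862). The WT value passed without WT day 0 library 1 (1.83, adjusted p = 0.0436), with title style in the fit (1.36, adjusted p = 0.0318) and with DESeq2 (1.30, adjusted p = 0.0198), and in no other setting. From day 1 to day 3 the differences were 0.16 in WT (SE 0.38, adjusted p = 0.782) and 0.46 in KO (SE 0.38, adjusted p = 0.382). The KO value passed with only the 2 groups compared in the fit (0.47, adjusted p = 0.0195) and in no other setting. A pair of genes on the opposite strand overlap Cd9, Gm28809 with 3 to 18 reads and Gm26728 with 0 to 4 reads per library, against 343 to 4419 reads of Cd9.

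Cd81 (chr7:143052739-143067934, plus strand) encodes a tetraspanin related to CD9. Its WT levels at day 0 were 63.1, 174 and 66.1 CPM, with library 2 far above the others, and at day 3 they were 109.5, 143 and 81.5 CPM. Its KO levels were 86.3, 71.3 and 60.0 CPM at day 0 and 154, 163 and 203 CPM at day 3. The day 0 and day 3 libraries overlapped in WT and did not in KO. Of all genes tested, 62.5% did not overlap in WT and 58.8% in KO. At day 1 the means were 131 ± 34.3 CPM in WT and 99.0 ± 12.5 CPM in KO.

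Cd81 rose from day 0 to day 3 in KO by 1.26 (SE 0.34, adjusted p = 0.00938), and the WT difference was 0.14 (SE 0.34, adjusted p = 0.745). Without WT day 0 library 2 the WT value was 0.82 and passed (adjusted p = 0.0229). From day 1 to day 3 the KO difference was 0.81 (SE 0.34, adjusted p = 0.0864). It passed with the KO libraries paired by number (0.81, adjusted p = 0.0371), with DESeq2 (0.85, adjusted p = 0.0476) and with only the 2 groups compared (0.82, adjusted p = 0.00926). It also passed with total-count scaling (1.08, adjusted p = 0.0411) and with limma on FPKM at pseudocounts of 1 (1.06, adjusted p = 0.0297) and 0.1 (1.09, adjusted p = 0.0336). It passed in no other setting and was 0.51 with title style in the fit (adjusted p = 0.35). The WT difference was -0.23 (SE 0.34, adjusted p = 0.624). On the first day the differences were 0.37 in WT (SE 0.34, adjusted p = 0.575) and 0.45 in KO (SE 0.34, adjusted p = 0.696). R74862, on the opposite strand at Cd81, had 1 to 24 reads per library against 765 to 3587 reads of Cd81.

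Of the genes for shared partners of CD9 and CD81, Ptgfrn rose from day 0 to day 3 by 1.84 in WT (SE 0.20, adjusted p = 1.47e-05) and by 1.92 in KO (SE 0.20, adjusted p = 2.33e-05). Igsf8 was not called, at -0.36 in WT (SE 0.18, adjusted p = 0.11) and -0.29 in KO (SE 0.18, adjusted p = 0.22). With total-count scaling the Igsf8 values were 0.013 in WT and 0.014 in KO.

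Cd44 (chr2:102811141-102901665, minus strand) encodes the receptor for hyaluronan and osteopontin. In WT it was at 98.9, 122 and 122 CPM at day 0, at 290.0, 191 and 174 CPM at day 1, and at 267, 254 and 291 CPM at day 3. In KO it was at 148, 162 and 167 CPM at day 0, at 133, 150.4 and 170.4 CPM at day 1, and at 196, 241 and 203 CPM at day 3. The WT libraries of days 1 and 3 were all above those of day 0, whereas the KO libraries of days 0 and 1 overlapped. Over all genes tested, WT groups did not overlap for 16.5% between days 0 and 1 and for 62.5% between days 0 and 3. Between KO days 0 and 1 the share was 19.1%.

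Cd44 rose in WT within 1 day by 0.94 (SE 0.17, adjusted p = 0.0342) and by day 3 by 1.25 (SE 0.17, adjusted p = 6.87e-05). The day 1 call was lost without WT day 0 library 1 (0.85, adjusted p = 0.0506), WT day 0 library 2 (0.99, adjusted p = 0.121), the single-hyphen WT day 1 library numbered 1 (0.69, adjusted p = 0.16) or WT day 1 library 2 (1.08, adjusted p = 0.057). In KO the first day gave -0.070 (SE 0.17, adjusted p = 0.927) and day 3 against day 0 gave 0.43 (SE 0.17, adjusted p = 0.0553). From day 1 to day 3 Cd44 rose in KO by 0.50 (SE 0.17, adjusted p = 0.0414). It was 0.37 with title style in the fit (adjusted p = 0.159) and 0.36 without the double-hyphen libraries (adjusted p = 0.395), and the call was also lost with no filter on low counts (0.52, adjusted p = 0.0518), with the KO libraries paired by number (0.50, adjusted p = 0.0571) and without any 1 of 5 libraries, KO day 1 libraries 1 and 2 and KO day 3 libraries 1, 2 and 3, at 0.40 to 0.55 (adjusted p = 0.0572 to 0.156). In WT the difference between days 1 and 3 was 0.31 (SE 0.17, adjusted p = 0.18). It was 0.59 without the single-hyphen WT day 1 library numbered 1 (adjusted p = 0.00775). With limma on FPKM it was 0.62 at a pseudocount of 1 (adjusted p = 0.0279) and 0.65 at 0.1 (adjusted p = 0.0302). Spp1, which encodes osteopontin, rose to day 3 in KO by 1.01 (SE 0.38, adjusted p = 0.0435) and stood at 0.89 in WT (SE 0.38, adjusted p = 0.0625). The KO call of Spp1 was lost when any 1 of its 6 libraries was left out (adjusted p = 0.0562 to 0.107), and the WT value passed without WT day 0 library 3 (1.5, adjusted p = 0.00301).

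Cd47 (chr16:49855618-49915010, plus strand) encodes the ligand that macrophages read through SIRPα. Its WT libraries were at 245, 149 and 266 CPM at day 0, at 218, 205 and 209.6 CPM at day 1, and at 97.3, 102 and 104 CPM at day 3. Its KO libraries were at 215, 221 and 198 CPM at day 0, at 253, 216 and 160.2 CPM at day 1, and at 108, 90.5 and 90.2 CPM at day 3. All day 3 libraries were below all earlier ones. Day 3 groups did not overlap those of day 0 for 62.5% of all genes tested in WT and 58.8% in KO. Against day 1 the shares were 50.9% and 50.7%.

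Cd47 fell from day 0 to day 3 by 1.12 in WT (SE 0.19, adjusted p = 0.000313) and by 1.13 in KO (SE 0.19, adjusted p = 0.000456). The fall came after day 1, at -1.06 in WT (SE 0.19, adjusted p = 0.00109) and -1.12 in KO (SE 0.19, adjusted p = 0.000936) from day 1 to day 3, and at -0.058 (SE 0.19, adjusted p = 0.902) and -0.010 (SE 0.19, adjusted p = 0.993) over the first day. Without the double-hyphen libraries the KO value from day 1 to day 3 was -0.70 and missed the threshold (adjusted p = 0.118). Thbs1, which encodes thrombospondin 1, a soluble ligand of CD47, rose to day 3 in KO by 1.97 (SE 0.59, adjusted p = 0.0163) and stood at 1.28 in WT (SE 0.58, adjusted p = 0.0805). The KO call of Thbs1 was lost without KO day 0 library 2 (1.62, adjusted p = 0.0606) or KO day 3 library 3 (1.44, adjusted p = 0.0773).

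Sirpa (chr2:129592835-129632228, plus strand) encodes the receptor for CD47 on myeloid cells. In WT it was at 1996, 1169 and 1396 CPM at day 0, at 1759.5, 2239 and 1673 CPM at day 1, and at 971, 934 and 919 CPM at day 3. In KO it was at 1246, 2036 and 798 CPM at day 0, at 1971, 2069 and 663 CPM at day 1, and at 897, 818 and 354 CPM at day 3. The double-hyphen libraries were the highest of every day 0 and day 1 group, and the KO library numbered 3 was the lowest of its group on all 3 days.

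The Sirpa differences from day 0 to day 3 were -0.69 in WT (SE 0.43, adjusted p = 0.187) and -0.98 in KO (SE 0.43, adjusted p = 0.0783), and from day 1 to day 3 -1.01 (SE 0.43, adjusted p = 0.0866) and -1.19 (SE 0.43, adjusted p = 0.0534). With the KO libraries paired by number, the KO values passed, at -1.0 (adjusted p = 0.00473) from day 0 and -1.13 (adjusted p = 0.00472) from day 1. They also passed without KO day 0 library 3 (-1.22, adjusted p = 0.049) and without KO day 1 library 3 (-1.52, adjusted p = 0.0114). Of them, the value from day 1 also passed with the replicate block over all libraries (-1.16, adjusted p = 0.0231) and with DESeq2 (-1.15, adjusted p = 0.0251). With title style in the fit they were -0.60 (adjusted p = 0.134) and -0.45 (adjusted p = 0.41), and without the double-hyphen libraries -0.51 (adjusted p = 0.253) and 0.097 (adjusted p = 0.911). The WT value from day 1 to day 3 passed with only the 2 groups compared (-0.95, adjusted p = 0.0144). It also passed with the replicate block within label (-0.90, adjusted p = 0.0195). Over the first day the differences were 0.31 in WT (SE 0.43, adjusted p = 0.733) and 0.20 in KO (SE 0.43, adjusted p = 0.913). Of the phosphatases that bind SIRPα, Ptpn6 fell from day 0 to day 3 by 0.78 in WT (SE 0.13, adjusted p = 0.000268) and by 1.04 in KO (SE 0.13, adjusted p = 6.39e-05). Ptpn11 rose in KO by 0.42 (SE 0.12, adjusted p = 0.0104) and stood at 0.24 in WT (SE 0.12, adjusted p = 0.0885), where it passed without WT day 0 library 3 (0.38, adjusted p = 0.0171).

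Adam8 (chr7:139978932-139992562, minus strand) encodes a membrane-anchored metalloprotease. Its WT levels peaked at day 1, with 551, 290.2 and 544 CPM at day 0, 1252, 941 and 806 CPM at day 1, and 404, 417 and 342 CPM at day 3. In KO the levels were 441, 589.6 and 651 CPM at day 0, 559, 639 and 707 CPM at day 1, and 352, 302 and 405 CPM at day 3. All 3 WT libraries of day 1 were above every other library of either label. Between WT days 0 and 1, groups did not overlap for 16.5% of all genes tested.

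Adam8 rose in WT over the first day by 1.11 (SE 0.24, adjusted p = 0.0388) and fell from day 1 to day 3 by 1.37 (SE 0.24, adjusted p = 0.00103). The day 1 call was lost without WT day 0 library 2 (0.87, adjusted p = 0.143), the single-hyphen WT day 1 library numbered 1 (0.92, adjusted p = 0.2) or WT day 1 library 2 (1.25, adjusted p = 0.0693). In KO the first day gave 0.18 (SE 0.24, adjusted p = 0.841), and Adam8 then fell from day 1 to day 3 by 0.85 (SE 0.24, adjusted p = 0.0178). Day 3 against day 0 gave -0.25 in WT (SE 0.24, adjusted p = 0.386) and a fall of 0.67 in KO (SE 0.24, adjusted p = 0.0361). Both KO calls were lost with total-count scaling, at -0.38 from day 0 (adjusted p = 0.236) and -0.58 from day 1 (adjusted p = 0.0937), and without the double-hyphen libraries (-0.58 and -0.97, adjusted p = 0.129 and 0.124). Both were also lost with limma on FPKM, at -0.36 and -0.56 with a pseudocount of 1 (adjusted p = 0.24 and 0.087) and at -0.37 and -0.57 with 0.1 (adjusted p = 0.242 and 0.0895), and the call from day 0 with no filter on low counts (-0.64, adjusted p = 0.0576). With total-count scaling the WT value from day 0 became 0.12. Leaving out 1 library ended the first call for KO day 0 numbers 2 and 3 and KO day 3 numbers 1 and 2 (-0.66 to -0.52, adjusted p = 0.0831 to 0.14). It ended the second for KO day 1 numbers 2 and 3 and again for KO day 3 numbers 1 and 2 (-0.84 to -0.73, adjusted p = 0.0519 to 0.0797). Gm16201, on the opposite strand at Adam8, had 11 to 78 reads per library against 3750 to 20822 reads of Adam8.

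**Figure D2:**
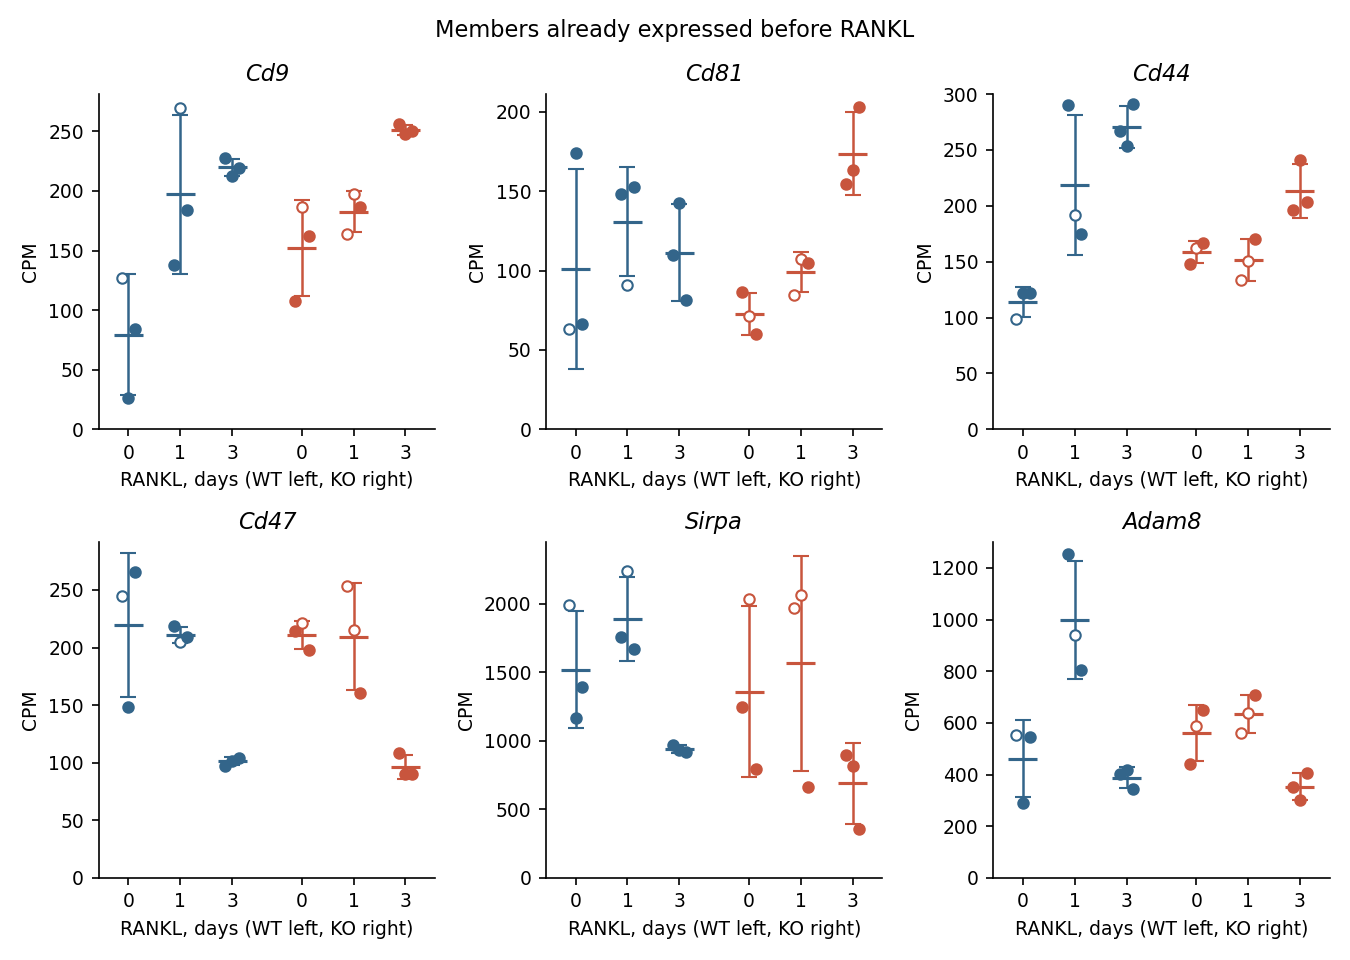
CPM on a linear axis from 0 for Cd9, Cd81, Cd44, Cd47, Sirpa and Adam8 in each of the 18 libraries, by days of RANKL, with WT in blue on the left and KO in red on the right. Points are libraries, open points are the 5 double-hyphen libraries, and bars show mean and SD (n = 3). Cd47 is lower in all 6 day 3 libraries, and Adam8 is highest in the 3 WT day 1 libraries.

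Counted over the 9 genes, 5 rose and 1 fell from day 0 to day 3 in WT (Dcstamp, Ocstamp, Cd9, Cd44 and Cd200 up, Cd47 down), where 23.7% of all genes tested were called higher and 26.5% lower. In KO 4 rose and 2 fell (Dcstamp, Ocstamp, Cd81 and Cd200 up, Cd47 and Adam8 down), against 20.2% and 22.3% of all genes. The median log2 difference of the 9 was 1.25 in WT and 0.72 in KO, against -0.031 and -0.0052 over all genes tested. With total-count scaling the median of all genes moved to 0.33 and 0.29. In WT 5153 genes were then called higher and 2221 lower, against 3370 and 3773 with TMM, and in KO 4274 and 1963, against 2873 and 3173.

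Over the first day 2 members rose in WT (Cd44 and Adam8) and 0 fell, against 1.44% of all genes called higher and 0.913% lower. In KO edgeR called 0 members, against 0.0211% of all genes, with 0 members at an unadjusted p under 0.05 (10.2% of all genes) and 0 called by DESeq2 (1.19%). In WT 5 members were at an unadjusted p under 0.05, against 20.5% of all genes, and DESeq2 called 5, against 8.57%. With only the 2 groups compared in the fit, edgeR called 0 members and 0 of all genes. From day 1 to day 3, 3 members rose and 2 fell in WT, where 12.7% of all genes were called higher and 19.3% lower. In KO 4 rose and 2 fell, against 12.5% and 15.5%.

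**Figure D3:**
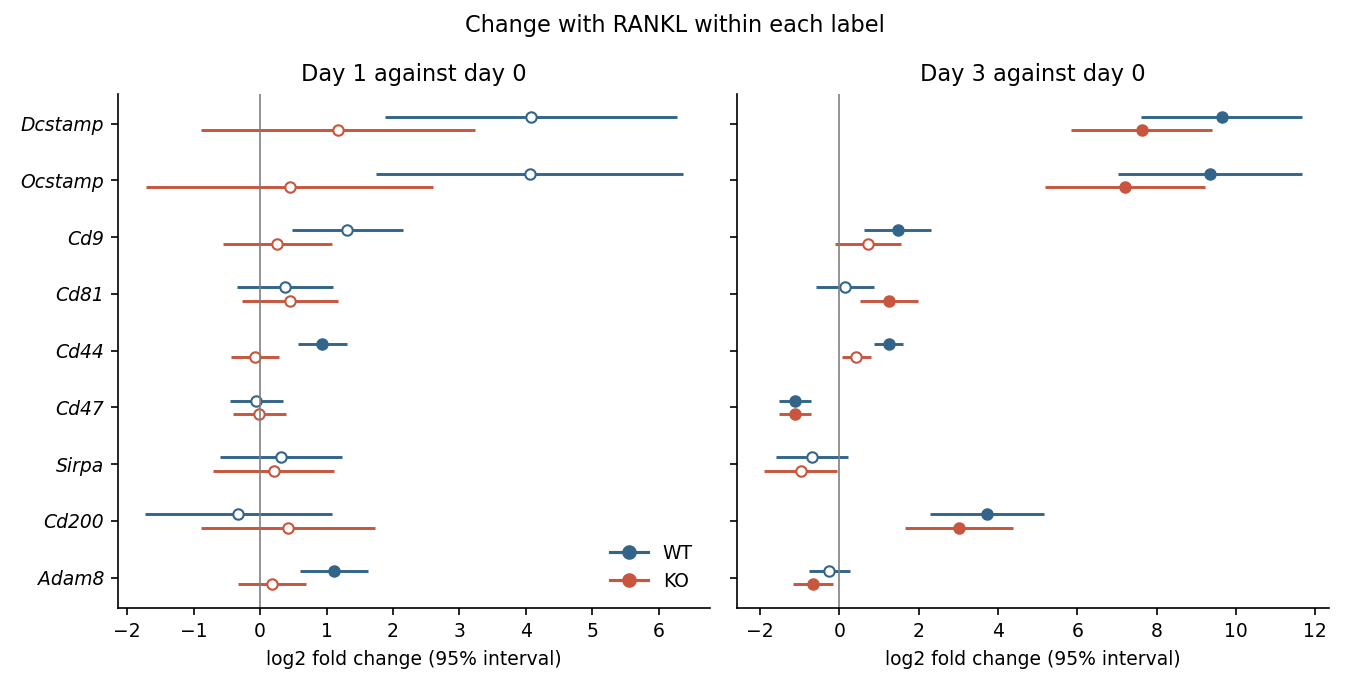
Log2 fold change of each of the 9 genes at day 1 (left) and day 3 (right) against day 0, within WT (blue) and KO (red), with 95% intervals from the edgeR fit. Filled points passed an adjusted p of 0.05. Dcstamp and Ocstamp lie furthest to the right at day 3, and Cd47 lies to the left in both labels.

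The window before the start of transcription was read for the members that RefSeq's promoter table holds, which are 6 of the 9 genes (GRCm38.p6). Those of Cd81, which rose in KO, and Adam8, which fell in KO, are not printed. The 4 printed are those of Cd200, Cd44 and Cd9, which rose in 1 or both labels, and Cd47, which fell. With them, upstream sequences of genes with opposite courses can be set side by side. Each runs 5′ to 3′ on the gene's strand and ends just before the first base of the gene. The bases GGAAA, the core of NFAT sites, are in capitals on either strand. NFATc1, the master factor of osteoclast formation, binds such cores.
Cd200, chr16:45409054-45409303, minus strand: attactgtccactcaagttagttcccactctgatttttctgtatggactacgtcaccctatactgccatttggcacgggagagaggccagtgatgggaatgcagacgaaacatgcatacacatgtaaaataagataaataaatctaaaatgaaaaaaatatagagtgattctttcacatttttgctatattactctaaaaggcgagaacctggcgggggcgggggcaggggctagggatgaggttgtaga
Cd44, chr2:102901666-102901915, minus strand: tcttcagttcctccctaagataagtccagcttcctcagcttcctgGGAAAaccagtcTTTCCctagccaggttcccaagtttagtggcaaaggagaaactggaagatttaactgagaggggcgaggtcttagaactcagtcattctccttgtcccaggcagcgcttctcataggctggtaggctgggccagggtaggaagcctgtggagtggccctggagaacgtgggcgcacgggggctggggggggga
Cd9, chr6:125494792-125495010, minus strand: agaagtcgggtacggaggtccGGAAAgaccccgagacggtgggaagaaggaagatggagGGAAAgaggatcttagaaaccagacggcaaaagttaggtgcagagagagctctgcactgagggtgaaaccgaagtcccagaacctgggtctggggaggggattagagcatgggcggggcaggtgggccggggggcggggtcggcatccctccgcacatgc
Cd47, chr16:49855404-49855617, plus strand: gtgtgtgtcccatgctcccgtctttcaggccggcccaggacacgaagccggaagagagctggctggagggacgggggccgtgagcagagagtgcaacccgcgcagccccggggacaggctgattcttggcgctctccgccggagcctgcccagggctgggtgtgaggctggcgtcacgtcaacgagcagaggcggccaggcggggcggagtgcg

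Cd44 held GGAAA 2 times in its 250 bases, once on each strand, and Cd9 2 times in its 219 bases, both on the gene's strand. The windows of Cd200 (250 bases) and Cd47 (214 bases) held none, and neither did those of Adam8 and Cd81. Of 32851 promoter windows of 250 bases, 55.6% held GGAAA on 1 strand or the other, so its presence is common. No window of the 6 genes held TGANTCA (the AP-1 core, in 6.75% of all windows), CACGTG (an E-box, in 6.02%) or the interferon response core (GAAA, then NN, then GAAA, in 2.98%). The 4 motifs were searched on both strands, and GGAAA can overlap the interferon response core. A match is a description of the letters in these windows. Nfatc1 itself rose from day 0 to day 3 by 2.53 in WT (SE 0.20, adjusted p = 2.16e-06) and by 2.17 in KO (SE 0.20, adjusted p = 1.12e-05).

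Levels between genes were compared as FPKM, which divides by 1 fixed length per gene, and only as a description. That length ran from 1993 bases for Dcstamp to 12512 bases for Cd44, and the order of genes depends on it. Whether it matches the transcripts made in these cells was not tested. At day 0 in WT the order was Sirpa (138 ± 31.2 FPKM), Adam8 (65.4 ± 20.4), Cd47 (35.4 ± 10.1), Cd9 (30.1 ± 18), Cd81 (29.4 ± 19.0), Cd44 (8.34 ± 1.37), Cd200 (0.572 ± 0.605), Ocstamp (0.0686 ± 0.0850) and Dcstamp (0.0571 ± 0.0705). Cd47, Cd9 and Cd81 did not differ beyond their spread, and neither did Ocstamp and Dcstamp. In KO the day 0 order differed only in that Cd9 (59.3 ± 13.2 FPKM) stood above Cd47 (34.8 ± 1.77). The other KO levels at day 0 were 124 ± 49.1 FPKM for Sirpa, 81.2 ± 15.9 for Adam8, 21.4 ± 4.40 for Cd81, 11.8 ± 0.926 for Cd44, 1.13 ± 0.603 for Cd200, 0.223 ± 0.212 for Ocstamp and 0.164 ± 0.201 for Dcstamp.

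By day 3 the order in WT was Sirpa (111 ± 3.27 FPKM), Cd9 (109 ± 5.21), Adam8 (70.8 ± 5.78), Dcstamp (63.9 ± 13.5), Ocstamp (60.1 ± 9.56), Cd81 (41.2 ± 10.4), Cd44 (25.4 ± 2.40), Cd47 (21.1 ± 1.05) and Cd200 (9.68 ± 1.54). Sirpa and Cd9 did not differ beyond their spread, nor did Adam8, Dcstamp and Ocstamp. In KO Cd9 (121 ± 5.94 FPKM) led, ahead of Sirpa (79.5 ± 35.9), Adam8 (62.5 ± 7.24), Cd81 (62.3 ± 6.66), Dcstamp (39.8 ± 15.2) and Ocstamp (39.8 ± 13.6). Per length, Dcstamp and Ocstamp were thus at about the same level in each label. The other KO levels were 19.5 ± 2.66 FPKM for Cd47, 19.4 ± 2.50 FPKM for Cd44 and 11.0 ± 1.53 FPKM for Cd200.

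At day 1 in WT the levels ran from Sirpa (178 ± 7.50 FPKM) and Adam8 (149 ± 45.0) through Cd9 (77.0 ± 16.4), Cd81 (40.2 ± 14.4), Cd47 (35.6 ± 5.36) and Cd44 (16.8 ± 6.15) to Ocstamp (1.30 ± 1.03), Dcstamp (1.11 ± 0.685) and Cd200 (0.452 ± 0.271). In KO they ran from Sirpa (142 ± 63.6 FPKM), Adam8 (93.4 ± 19.4) and Cd9 (72.3 ± 10.3) through Cd47 (34.4 ± 5.16), Cd81 (29.5 ± 5.44) and Cd44 (11.4 ± 2.47) to Cd200 (1.53 ± 0.615), Dcstamp (0.399 ± 0.507) and Ocstamp (0.323 ± 0.390). The libraries of Ocstamp, Dcstamp and Cd200 overlapped in WT, so their order there is not beyond their spread, and in KO all 3 Cd200 values lay above those of both STAMP genes.

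**Figure D4:**
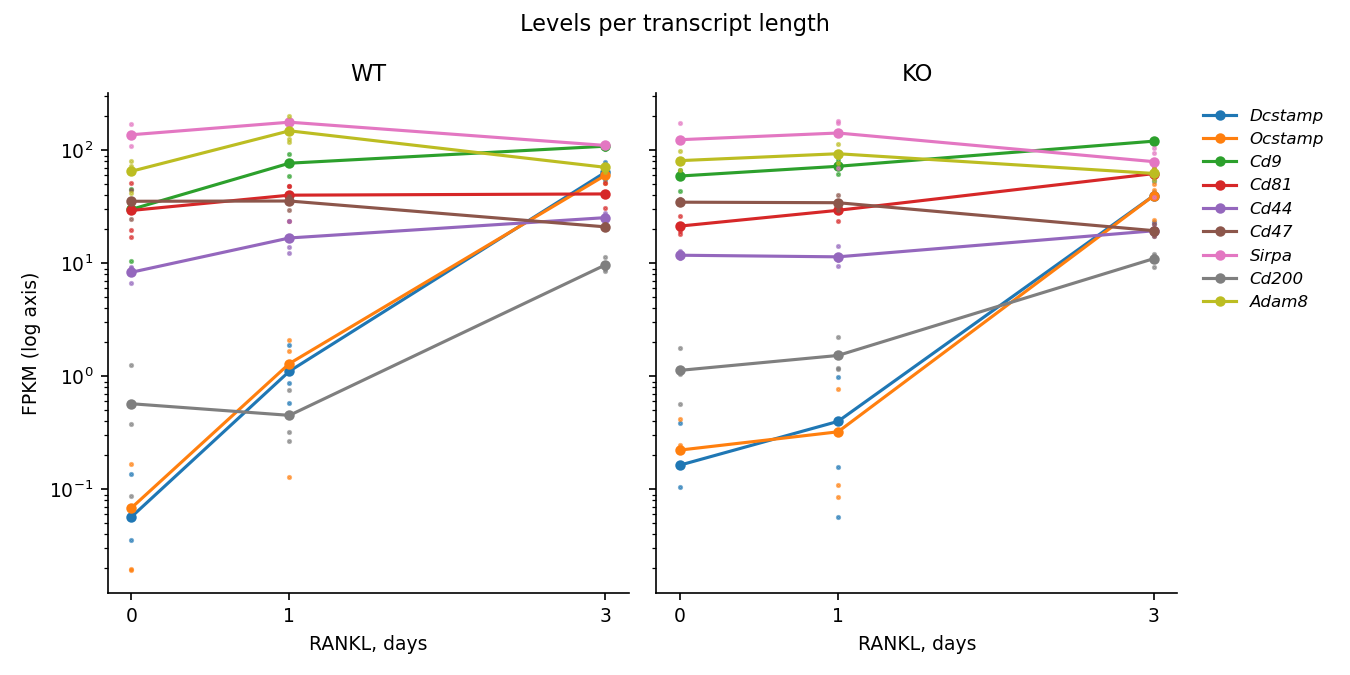
FPKM on a log axis of the 9 genes against days of RANKL in WT (left) and KO (right). Lines join group means, small dots are libraries, and libraries at 0 reads are not drawn. Dcstamp and Ocstamp run together from the bottom of the plot at day 0 to the middle at day 3.

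The comparison of labels asked whether the members differed between KO and WT at a given day. At an adjusted p of 0.05, edgeR called 0 of the 9 genes at each of the 3 days, where 0.119% of all genes were called at day 0, 0.112% at day 1 and 0.14% at day 3. At an unadjusted p under 0.05 there were 2 members at day 0, 4 at day 1 and 0 at day 3, against 7.59%, 7.9% and 10.7% of all genes. DESeq2 called 0 members at each day, against 0.449%, 0.534% and 1.65% of all genes.

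At day 0 the 2 were Cd9, higher in KO by 0.94 (95% interval 0.11 to 1.77, adjusted p = 0.618), and Cd44, higher by 0.48 (0.11 to 0.84, adjusted p = 0.558). The Cd9 difference was 0.53 without WT day 0 library 2 and 1.46 without WT day 0 library 1. Only for Cd44 did the libraries not overlap between the labels at day 0, which held for 10.1% of all genes. The intervals of the STAMP genes at day 0 were wide, -1.53 to 4.27 for Dcstamp and -1.20 to 4.36 for Ocstamp. The 8 neutrophil markers summed to 662 to 3012 CPM in WT and 3650 to 11714 CPM in KO at day 0, and their part was not tested.

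At day 1 the 4 were Ocstamp (-2.02, 95% interval -3.85 to -0.20, adjusted p = 0.601), Cd44 (-0.53, -0.89 to -0.17, adjusted p = 0.492), Adam8 (-0.66, -1.16 to -0.15, adjusted p = 0.563) and Cd200 (1.68, 0.31 to 3.06, adjusted p = 0.568). The libraries of the 2 labels did not overlap for Cd44, Adam8 and Cd200, 3 of the 9 genes, against 12.6% of all genes. Dcstamp was at -1.54 (-3.14 to 0.057, adjusted p = 0.642). Without KO day 1 library 3 Dcstamp was at -3.23 and Ocstamp at -3.54, and without the double-hyphen libraries they were at -0.51 and -1.31. Dcstamp was at -0.99 without WT day 1 library 2 and -1.02 without KO day 1 library 1. The KO group of day 1 has 2 double-hyphen libraries and the WT group 1. With title style in the fit the day 1 differences were -1.09 for Ocstamp, -1.15 for Dcstamp, -0.46 for Cd44, -0.67 for Adam8 and 1.71 for Cd200.

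At day 3, where all libraries are of 1 title style, the WT libraries lay above the KO libraries for Dcstamp, Ocstamp, Cd44 and Sirpa and below them for Cd9 and Cd81. These are 6 of the 9 genes, against 29.2% of all genes whose libraries did not overlap at day 3. The differences were -0.65 for Dcstamp (95% interval -1.84 to 0.54, adjusted p = 0.708), -0.56 for Ocstamp (-2.0 to 0.88, adjusted p = 0.795), -0.34 for Cd44 (-0.70 to 0.021, adjusted p = 0.492) and -0.45 for Sirpa (-1.36 to 0.46, adjusted p = 0.735). Cd81 was at 0.64 (-0.080 to 1.36, adjusted p = 0.523) and Cd9 at 0.19 (-0.63 to 1.01, adjusted p = 0.884). Cd47, Cd200 and Adam8 overlapped, at -0.070 (-0.47 to 0.33), 0.24 (-1.01 to 1.49) and -0.13 (-0.64 to 0.37).

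Other values moved with the label at day 3. The stromal or osteoblast markers summed to 11106 to 14301 CPM in WT and 20691 to 29891 CPM in KO, the neutrophil markers to 35.8 to 66.9 and 97.6 to 1147 CPM, and the osteoclast markers to 15177 to 22359 and 7888 to 17024 CPM. KO day 3 library 3 had the lowest osteoclast sum, 7888 CPM, and was also the lowest library of day 3 for Dcstamp, Ocstamp and Sirpa and the highest for Cd81. Without it the differences were -0.40 for Dcstamp, -0.32 for Ocstamp and -0.14 for Sirpa. The part of these markers in the differences was not tested.

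**Figure D5:**
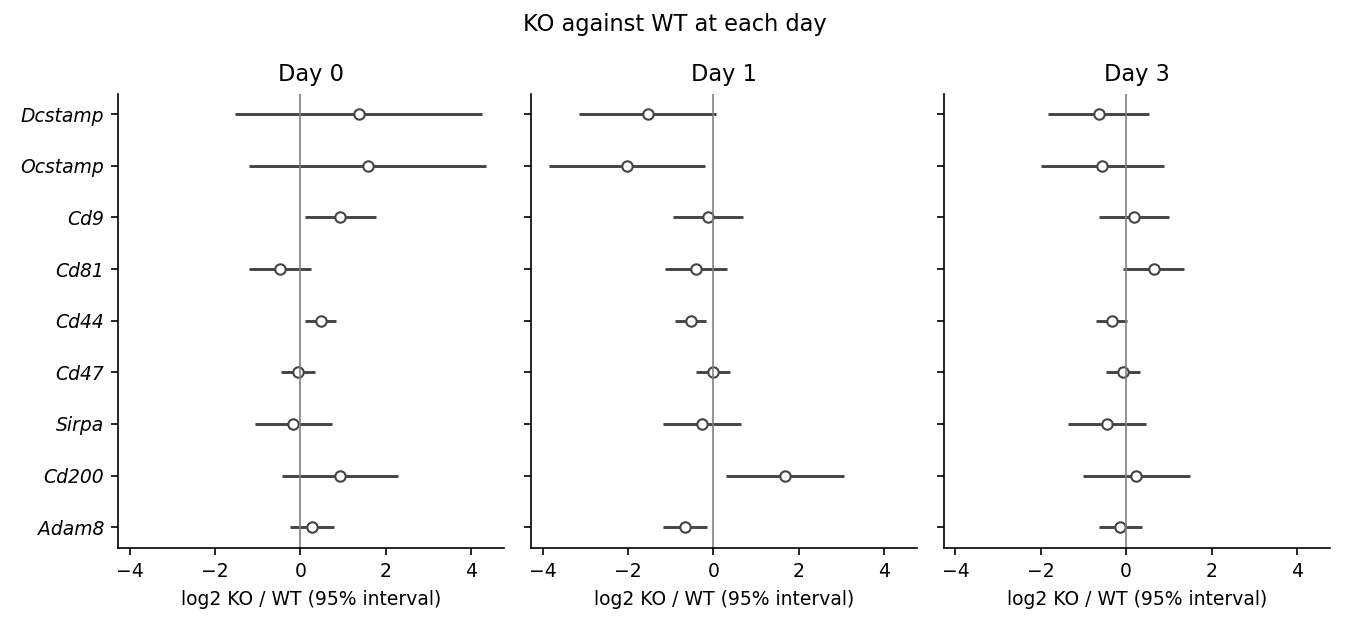
Log2 ratio of KO to WT for each of the 9 genes at days 0, 1 and 3, with 95% intervals from the edgeR fit. Open points did not pass an adjusted p of 0.05, and all 27 points are open.

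Whether the response to RANKL differed between the labels was tested as an interaction. edgeR called 0 of the 9 genes and 0% of all genes, both for day 3 against day 0 and for day 1 against day 0. At an unadjusted p under 0.05 there were 2 members for day 3 and 3 for day 1, against 5.4% and 3.7% of all genes. DESeq2 called 0 members, against 0.0281% and 0% of all genes. For day 3 they were Cd44, whose change in KO less that in WT was -0.82 (95% interval -1.33 to -0.31, adjusted p = 0.91), and Cd81, with 1.12 (0.098 to 2.14, adjusted p = 0.91). For day 1 they were Cd44 (-1.01, -1.52 to -0.50, adjusted p = 1), Adam8 (-0.93, -1.65 to -0.22, adjusted p = 1) and Ocstamp (-3.61, -6.90 to -0.31, adjusted p = 1). The calls of Cd9 and Cd44 in WT alone and of Cd81 in KO alone are thus not shown to differ between the labels.

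Among 22 tested genes of a list of other fusion genes, 6 rose and 6 fell from day 0 to day 3 in WT, and 9 rose and 6 fell in KO. Over all genes tested, 23.7% were called higher and 26.5% lower in WT, and 20.2% and 22.3% in KO. The median difference over the 22 genes was 0.13 in WT and 0.36 in KO. Siglec15, a sialic acid receptor needed for osteoclast formation, rose by 9.34 in WT (SE 0.81, adjusted p = 3.37e-06) and by 8.30 in KO (SE 0.76, adjusted p = 9.83e-06). Itgb3, the β chain of the vitronectin receptor, rose by 3.40 (SE 0.45, adjusted p = 5.4e-05) and 1.71 (SE 0.42, adjusted p = 0.00555). P2rx7, an ATP-gated channel, fell by 2.30 (SE 0.23, adjusted p = 7.64e-06) and 1.65 (SE 0.22, adjusted p = 0.00011), and Trem2, a macrophage receptor that signals through DAP12, fell by 1.78 (SE 0.32, adjusted p = 0.000516) and 1.64 (SE 0.32, adjusted p = 0.00132).

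Atp6v0d2, a proton pump subunit needed for fusion, was not called, at 2.33 in WT (SE 1.19, adjusted p = 0.115) and 1.28 in KO (SE 1.15, adjusted p = 0.388). Its libraries ranged from 11.5 to 330.0 CPM at day 0 in WT, from 24.7 to 818 CPM at day 1 in WT and from 354 to 797 CPM at day 3 over both labels. With WT day 0 library 1 left out, the WT difference was 4.22 and passed (adjusted p = 0.0258). With all double-hyphen libraries left out, both labels passed, at 4.26 in WT (adjusted p = 0.000885) and 2.20 in KO (adjusted p = 0.0155).

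Of 14 tetraspanins and partners 3 rose and 4 fell in WT from day 0 to day 3, and 3 rose and 3 fell in KO, beside the same 23.7% and 26.5% of all genes in WT and 20.2% and 22.3% in KO. Tspan7 rose by 3.05 in WT (SE 0.55, adjusted p = 0.000474) and by 2.67 in KO (SE 0.53, adjusted p = 0.00142). Cd53 and Cd37, tetraspanins of leukocytes, fell by 1.89 (SE 0.40, adjusted p = 0.00142) and 0.73 (SE 0.14, adjusted p = 0.000942) in WT and by 1.67 (SE 0.39, adjusted p = 0.0041) and 0.92 (SE 0.14, adjusted p = 0.000289) in KO. The median difference over the 14 genes was -0.32 in WT and -0.27 in KO.

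Of 12 genes that regulate fusion genes, 4 rose and 4 fell in WT, where 23.7% and 26.5% of all genes did, and 2 rose and 4 fell in KO, where 20.2% and 22.3% did. The median difference over the 12 genes was 0.27 in WT and -0.45 in KO. Beside Nfatc1, Fos, a component of AP-1, rose in WT by 2.53 (SE 0.57, adjusted p = 0.00231) and stood at 1.07 in KO (SE 0.55, adjusted p = 0.125). Irf8, a macrophage factor that restrains osteoclast formation, fell by 2.56 in WT (SE 0.37, adjusted p = 9.5e-05) and by 2.28 in KO (SE 0.37, adjusted p = 0.000343). The interaction of label and day was not called for Fos (-1.46, SE 0.77, adjusted p = 0.921) or for Itgb3 (-1.70, SE 0.59, adjusted p = 0.91).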

How the data were processed

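Total RNA was extracted and, per the study's methods, sequenced as mRNA libraries, 18 in all and 3 in each of the 6 groups of label and RANKL day. The authors deposited 1 table with read counts per gene and FPKM values for each library. The deposited counts were used as given. Per the study's methods, the authors computed the FPKM values with StringTie and Ballgown. The submitters' processing notes name StringTie and the builds GRCm38.p4 and mm10, and the aligner and the counting rule are not given in the sources used here. For 19733 of 19733 genes checked, FPKM was the count over the library total and 1 fixed gene length within 0.1%. FPKM was used only to set levels of genes side by side and in 2 alternatives. Columns with no sample numbered 0.

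Counts were tested with edgeR 4.0.16 in R 4.3.3 (filterByExpr, TMM, quasi-likelihood test, all 18 libraries in 1 fit of 6 groups), adjusted by Benjamini-Hochberg over the 14241 genes tested and called under 0.05. Alternatives used limma 3.58.1 on log2(FPKM + 1) and log2(FPKM + 0.1), DESeq2 1.42.0, other filters and scalings, title style, replicate blocks and each library left out. Of these, 2 (the 5 double-hyphen libraries left out and total-count scaling) were chosen after seeing the data. The code of the fit was also run on simulated counts with a smaller spread than these libraries (common dispersion 0.0945 here) and no title styles. That run does not show how the fit performs on these data.

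The members and gene lists were chosen with earlier results of these data known. Beside the members, the text names Zmat1, 8 partner genes, and from each list up to 2 genes called higher and 2 called lower with the largest change from day 0 to day 3 in WT. Whether numbers pair libraries was checked as the correlation of deviations from group means. It was 0.130, 0.135 and 0.398 between KO days 0 and 3, and 0.218, 0.156 and 0.340 between KO days 1 and 3. Each was above the threshold of 0.1, so KO numbers were taken as pairs there. Libraries of unlike numbers were not correlated, so this pairing is an assumption. Between days 0 and 1 the correlation ran from 0.0536 to 0.598 in KO and from -0.464 to 0.604 in WT. For WT it ran from -0.023 to 0.111 between days 0 and 3 and from -0.066 to 0.086 between days 1 and 3. No 2 libraries of a group agreed within sampling noise. Totals of 13789775 to 17559958 counts set the precision, and exact intervals cover counting error only.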

Additional observations from a re-analysis of the deposited data

How the results depend on the processing

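Dcstamp, Ocstamp and Cd200 rose and Cd47 fell from day 0 to day 3 in both labels under all 19 alternatives run for each, as did Cd44 in WT and Cd81 in KO. The cause of the other changes below was not tested. Depth limits the day 0 values of Dcstamp and Ocstamp, which rest on 0 to 22 reads per library. Of the 12 libraries before day 3, 5 carry a double hyphen and at day 3 none does, so title style and day cannot be fully told apart. Without the double-hyphen libraries, an alternative chosen after seeing the data, KO day 1 has 1 library, which is assumed to vary like the other groups. Total-count scaling moved the median of all genes to 0.24 in WT and 0.28 in KO from day 1 to day 3, with 3011 genes called higher and 1363 lower in WT, against 1811 and 2743 as reported, and 2972 and 1207 in KO, against 1784 and 2205.

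As reported, edgeR called 335 genes for WT day 1 vs day 0, 3 genes for KO day 1 vs day 0, 7143 genes for WT day 3 vs day 0, 6046 genes for KO day 3 vs day 0, 4554 genes for WT day 3 vs day 1, 3989 genes for KO day 3 vs day 1, 17 genes for KO vs WT day 0, 16 genes for KO vs WT day 1, 20 genes for KO vs WT day 3, 0 genes for the interaction at day 3 and 0 genes for the interaction at day 1. With DESeq2, the genes called were 1221 for WT day 1 vs day 0, 170 for KO day 1 vs day 0, 64 for KO vs WT day 0, 76 for KO vs WT day 1, 235 for KO vs WT day 3 and 4 for the interaction at day 3. The number of members called was 5 for WT day 1 vs day 0. The sign turned for Cd47 in KO day 1 vs day 0 (0.0015) and Cd47 in KO vs WT day 1 (0.014). With DESeq2 size factors in edgeR, the sign turned for Cd47 in KO day 1 vs day 0 (0.0014) and Cd47 in KO vs WT day 1 (0.014). With both WT day 1 libraries numbered 1 summed, the genes called were 573 for WT day 1 vs day 0 and 12 for KO day 1 vs day 0. The number of members called was 4 for WT day 1 vs day 0. A change of sign was seen for Cd81 in the interaction at day 1 (-0.0015). With limma on log2(FPKM + 0.1), the genes called were 197 for WT day 1 vs day 0, 12 for KO day 1 vs day 0, 37 for KO vs WT day 3 and 4 for the interaction at day 3. The sign turned for Cd47 in WT day 1 vs day 0 (0.039), Cd200 in WT day 1 vs day 0 (0.052), Adam8 in WT day 3 vs day 0 (0.17), Igsf8 in WT day 3 vs day 0 (0.027), Igsf8 in KO day 3 vs day 0 (0.021), Cd81 in WT day 3 vs day 1 (0.081), Cd47 in KO vs WT day 0 (0.015), Cd81 in the interaction at day 1 (-0.090) and Cd47 in the interaction at day 1 (-0.064). With limma on log2(FPKM + 1), the genes called were 174 for WT day 1 vs day 0, 17 for KO day 1 vs day 0, 28 for KO vs WT day 0, 112 for KO vs WT day 3 and 7 for the interaction at day 3. Values of the other sign came up for Cd47 in WT day 1 vs day 0 (0.037), Adam8 in WT day 3 vs day 0 (0.16), Igsf8 in WT day 3 vs day 0 (0.025), Igsf8 in KO day 3 vs day 0 (0.020), Cd81 in WT day 3 vs day 1 (0.078), Cd47 in KO vs WT day 0 (0.013), Cd81 in the interaction at day 1 (-0.088) and Cd47 in the interaction at day 1 (-0.061). With no filter on low counts, the genes called were 126 for WT day 1 vs day 0. With only the groups compared in the fit, the genes called were 0 for WT day 1 vs day 0, 0 for KO day 1 vs day 0, 6 for KO vs WT day 0, 3 for KO vs WT day 1 and 158 for KO vs WT day 3. The members called were then 0 for WT day 1 vs day 0. With a filter of 5 CPM in 3 libraries, the sign turned for Cd47 in KO vs WT day 1 (0.0022). With title style in the fit, the genes called were 1001 for WT day 1 vs day 0, 18 for KO day 1 vs day 0, 31 for KO vs WT day 1 and 51 for KO vs WT day 3. The members called were then 5 for WT day 1 vs day 0. The sign turned for Sirpa in KO day 1 vs day 0 (-0.15) and Cd47 in the interaction at day 1 (-0.043). With total-count scaling, the genes called were 206 for WT day 1 vs day 0 and 8 for KO day 1 vs day 0. A change of sign was seen for Cd47 in WT day 1 vs day 0 (0.0076), Adam8 in WT day 3 vs day 0 (0.12), Igsf8 in WT day 3 vs day 0 (0.013), Igsf8 in KO day 3 vs day 0 (0.014), Cd81 in WT day 3 vs day 1 (0.036) and Cd47 in the interaction at day 1 (-0.023). With the double-hyphen libraries left out, the genes called were 1051 for WT day 1 vs day 0 and 606 for KO day 3 vs day 1. The members called were then 4 for WT day 1 vs day 0 and 2 for KO day 3 vs day 1. Values of the other sign came up for Cd47 in WT day 1 vs day 0 (0.061), Cd44 in KO day 1 vs day 0 (0.13), Sirpa in KO day 1 vs day 0 (-0.61), Cd81 in WT day 3 vs day 0 (-0.054), Sirpa in KO day 3 vs day 1 (0.097), Cd9 in KO vs WT day 1 (0.21) and Cd47 in the interaction at day 1 (-0.41).

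With the replicate block over all libraries, the genes called were 9 for WT day 1 vs day 0. The number of members called was 0 for WT day 1 vs day 0. A change of sign was seen for Cd200 in WT day 1 vs day 0 (0.15), Cd47 in KO vs WT day 1 (0.027) and Sirpa in the interaction at day 1 (0.13). With the replicate block within each label, the genes called were 0 for WT day 1 vs day 0 and 0 for KO day 1 vs day 0. The members called were then 0 for WT day 1 vs day 0. Values of the other sign came up for Cd47 in WT day 1 vs day 0 (0.025) and Cd200 in WT day 1 vs day 0 (0.33). Where KO numbers were taken as pairs, the block ended the call of Cd44 from day 1 to day 3. It made those of Cd81 and Sirpa from day 1 to day 3 and of Sirpa from day 0, as given above. It changed no other call of a member there. Over all libraries it moved Spp1 from day 0 to day 3 in KO to an adjusted p of 0.0527. WT numbers share only a number. With the block within label, Cd44 in WT day 1 vs day 0 was at 0.96 (adjusted p = 0.0739), Adam8 at 1.09 (adjusted p = 0.0796), and Sirpa in WT passed from day 0 (-0.66, adjusted p = 0.0252) and day 1 (-0.90, adjusted p = 0.0195) to day 3.

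With each library of the groups compared left out in turn, edgeR called 0 to 1809 genes for WT day 1 vs day 0, 0 to 4 members for WT day 1 vs day 0, 0 to 13 genes for KO day 1 vs day 0, 2842 to 4635 genes for WT day 3 vs day 1, 2235 to 4218 genes for KO day 3 vs day 1, 15 to 196 genes for KO vs WT day 0, 13 to 131 genes for KO vs WT day 1 and 9 to 13 genes for KO vs WT day 3. In these fits the sign turned at least once for Cd47 in WT day 1 vs day 0 (-0.27 to 0.10), Cd200 in WT day 1 vs day 0 (-1.09 to 0.89), Dcstamp in KO day 1 vs day 0 (-0.52 to 2.74), Ocstamp in KO day 1 vs day 0 (-1.07 to 1.29), Cd44 in KO day 1 vs day 0 (-0.17 to 0.015), Cd47 in KO day 1 vs day 0 (-0.17 to 0.14), Sirpa in KO day 1 vs day 0 (-0.066 to 0.61), Cd81 in WT day 3 vs day 0 (-0.079 to 0.82), Cd9 in WT day 3 vs day 1 (-0.021 to 0.47), Dcstamp in KO vs WT day 0 (-0.19 to 2.86), Cd81 in KO vs WT day 0 (-0.72 to 0.17), Cd47 in KO vs WT day 0 (-0.27 to 0.10), Sirpa in KO vs WT day 0 (-0.57 to 0.11), Zmat1 in KO vs WT day 0 (-0.15 to 0.89), Cd9 in KO vs WT day 1 (-0.32 to 0.17), Cd47 in KO vs WT day 1 (-0.17 to 0.15), Sirpa in KO vs WT day 1 (-0.52 to 0.090), Cd47 in the interaction at day 3 (-0.17 to 0.20), Sirpa in the interaction at day 3 (-0.56 to 0.12), Cd81 in the interaction at day 1 (-0.57 to 0.32), Cd47 in the interaction at day 1 (-0.11 to 0.26), Sirpa in the interaction at day 1 (-0.38 to 0.30) and Cd200 in the interaction at day 1 (-0.47 to 1.51). The cause was not tested.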
